A study of Sus scrofa with 22 samples.

Results

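Mitochondrial ribosomal proteins are encoded in the nucleus, made in the cytosol and imported into mitochondria, where they assemble with ribosomal RNA of the mitochondrial genome into the mitoribosome. The mitoribosome has a large subunit, which joins amino acids, and a small subunit, which reads the messenger RNA, and it makes the few core subunits of the respiratory chain that the mitochondrial genome encodes. Some of its proteins descend from bacterial ribosomal proteins, and others were added later in evolution and have no bacterial counterpart. The members described here are all genes named MRPL or MRPS with a number in the deposited table of group means, 67 of 25749 genes. Of these 41 are named MRPL and 26 MRPS. By their known place 43 belong to the large subunit, among them MRPS18A and MRPS30 in spite of their names, and 23 to the small subunit. MRPS36 belongs to neither, since it is now known as KGD4, a part of the 2-oxoglutarate dehydrogenase complex. Bacterial counterparts are known for 37 members, and 29 mitoribosomal members are specific to mitochondria.

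The study measured polyadenylated RNA of single pig cells with a modified Smart-seq2 protocol, in which each cell received a barcode in the lysis buffer. Of 22 libraries, 20 (P1 to P20) held cells of pig embryos from embryonic day (E) 0 to 14, with no treatment named. The other two, pgEpiSC_low and pgEpiSC_high, held pre-gastrulation epiblast stem cells, lines derived from E10 epiblast; what low and high mean is not given. The deposited table has means of 39 groups, 37 of them embryonic, over 1647 cells, and each cell's group was recovered from those means: Oocyte, Zygote, 2C, 4C and 8C (cleavage stages), Morula_E4, the inner cell mass and its precursor (preICM_E5, ICM_E6), Epiblast_E7 to E10, the trophectoderm (preTE_E5, TE_E6 to TE_E14), Hypoblast_E7 to E10, and Ectoderm, Mesdoderm (the authors' spelling), Endoderm and Defi_Endoderm of E11 to E14. For each library, the cells of one group were summed into 1 sample, and the tests compare these sums, so p-values measure only the spread between sums, which may be technical. No label says which embryo or litter a cell came from.

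The 20 embryonic and 2 stem cell libraries held 7585550 to 40096397 counts each, and a cell held 5274 to 1796832. All 96 barcodes occurred in more than 1 library. Defining markers were read as CPM, the share of the pooled counts scaled to 1000000. The trophectoderm factors GATA2 and GATA3 reached 248 and 159 CPM in TE_E6 but 16 and 13 CPM in preTE_E5. SOX17 reached 61 CPM in Hypoblast_E7, and NANOG 228 CPM in Epiblast_E7. TBXT, a defining gene of early mesoderm, was at or near 0 in the mesoderm groups (TBXT 2.49 CPM in Mesdoderm_E11 and 0.1 CPM in Mesdoderm_E13). HAND1 was at 230 and 460.5 CPM in these groups.

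Some early libraries stand apart. Factors of the embryo's own genome were high in 4C cells of library P1 and low in those of P13: TFAP2C was at 347.2 and 38.2 CPM, GATA6 at 274.7 and 12.7 CPM, and KLF17 at 447.5 and 0.5 CPM. The 8C sums, from P19 and P20, were low for all of these (TFAP2C 17.5 and 27.0 CPM, GATA6 2.1 and 1.5 CPM), while the morula sums of P1 and P2 were high (TFAP2C 251.0 and 263.3 CPM). Of 5 egg transcripts, MOS was at 359.3 and 438.8 CPM in 8C and at 21.8 and 11.4 CPM in morula. The other 4 were high in the morula sum of P1 and low in that of P2: GDF9 at 222.6 and 9.9 CPM, BMP15 at 407.8 and 17.6 CPM, ZP3 at 128.6 and 6.1 CPM and ZAR1 at 55.7 and 0.8 CPM. In the 8C sums GDF9 was at 253.3 and 298.3 CPM, BMP15 at 286.5 and 332.0 CPM, ZP3 at 61.7 and 51.8 CPM and ZAR1 at 9.4 and 8.7 CPM, so BMP15, ZP3 and ZAR1 were higher in the morula sum of P1 than in 8C. KRT8, a keratin of the trophectoderm, was at 150.1 CPM in 2C cells of P13 and 141.4 CPM in 8C cells of P19, against 2.0 CPM in 2C cells of P1 and 2.0 CPM in 8C cells of P20; P13 and P19 also held later embryos. These genes were picked after their values were seen. The 8C and morula groups share no library, so the stage and the library cannot be told apart there.

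Some members had counts close to those of a neighbouring gene, which was found after their values had been seen. In cells with at least 20 counts of MRPL10, a base of the large subunit's stalk, the count of the adjacent gene OSBPL7 was within 5% of it in 97.4% of 704 cells. For MRPL28, a large-subunit protein, the overlapping gene PGAP6 (TMEM8A) matched in 95.5% of 1303 cells. Over all members, the best match among genes that are not neighbours was 8.9% to 23.3% of cells. By the rule that a neighbour within 50 kb matched more often than any other gene, 9 members were set apart. The other 7 matched less often: MRPL55 with GUK1 in 41.7% of cells, MRPS7 with MIF4GD in 33.9%, MRPS22 with COPB2 in 26.6%, MRPL47 with ACTL6A in 24.2%, MRPL43 with TWNK between these, MRPS18C with ABRAXAS1 in 21.1% and MRPS16 with DNAJC9 in 15.1%. The last 2 lie within the range of genes that are not neighbours. For MRPL10 and MRPL28 the reads of the member and of its neighbour cannot be told apart. In all, 21 members overlap another gene in the RefSeq table of the build Sscrofa11.1, and no source used here says whether the counting used strand.

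Over the 39 groups the 67 members together made up between 5601 CPM in 2C and 20567 CPM in TE_E6, a ratio of 3.67. The cleavage stages were low and close together: 7367 CPM in Oocyte, 6445 CPM in Zygote, 5601 CPM in 2C, 7645 CPM in 4C and 7053 CPM in 8C. Morula_E4 stood at 12779 CPM, and the E5 groups at 16323 CPM (preICM_E5) and 16780 CPM (preTE_E5). The range of the 2 library sums was 5466 to 5884 CPM in 2C, 6958 to 7095 CPM in 8C and 12522 to 13938 CPM in Morula_E4, without overlap between 8C and morula. In 4C, however, library P1 gave 8147 CPM and P13 5911 CPM.

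After the blastocyst stage the summed level of each lineage in CPM was lower in its last group than in its first, with rises and falls between. The epiblast ran from 18581 CPM in ICM_E6 through 16212 CPM in Epiblast_E7 and 13543 CPM in Epiblast_E8 to 16163 CPM in Epiblast_E10. The hypoblast, the first endoderm of the blastocyst, was at 18938 CPM at E7 and 15257 CPM at E10. The trophectoderm fell from its peak to 12329 CPM in TE_E10 and 7594 CPM in TE_E14, the latter from 11 cells, 10 of them of library P12. The E14 groups of the embryo proper were at 12456 CPM (ectoderm), 10856 CPM (mesoderm) and 10097 CPM (definitive endoderm). TE_E9 holds 2 cells and entered no test.

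**Figure D1:**
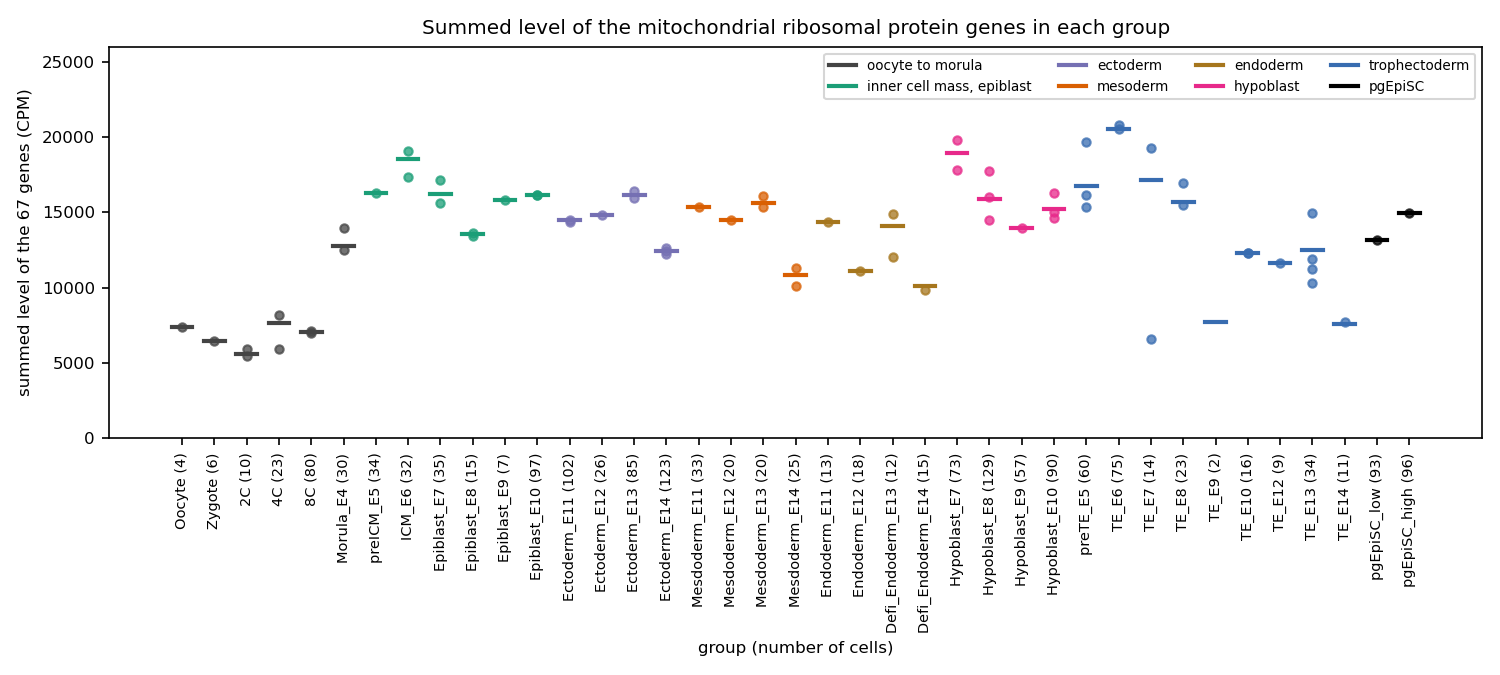
Summed level of the 67 members in each of the 39 groups (CPM; lines are pooled values, dots the library sums). The cleavage stages lie between 5601 and 7645 CPM, Morula_E4 at 12779 CPM, and the highest group is TE_E6 at 20567 CPM.

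CPM is relative to all RNA of a cell, and the spike-in RNA gives another scale. Per 1000 spike-in counts the members had 2107 counts in Oocyte, 530 in Zygote, 1321 in 2C, 904.5 in 4C, 694 in 8C and 1273 in Morula_E4. The oocyte group was then the highest of all. Endoderm_E12, with 287, was the lowest of the embryonic groups that have a library sum. TE_E9, with 2 cells and no library sum, was at 93.5. On this scale the epiblast and hypoblast were higher in their last group: 645 in ICM_E6 and 1040 in Epiblast_E10, 817 in Hypoblast_E7 and 1082 in Hypoblast_E10. The endoderm was alike in its first and last group, at 478 in Endoderm_E11 and 480 in Defi_Endoderm_E14. Between them it was lower, at 287 in Endoderm_E12 and 339 in Defi_Endoderm_E13. Lower in the last group were the trophectoderm (1033 in TE_E6, 358 in TE_E14), ectoderm (722 at E11, 480 at E14) and mesoderm (896 and 359). This scale also follows how much RNA a cell holds.

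Levels of single members were deposited as means over cells of log2(CPM/10 + 1), and on this scale they differed more than the sum. Values of different genes are not compared as abundance, since transcript lengths were not available here. The members that varied most between groups were MRPS15 (SD over groups 1.23), MRPL12 (1.21), MRPL17 (1.14), MRPL49 (1.12), MRPL38 (1.10) and MRPL24 (1.02). For most of these the 8C group was the lowest, with deposited means of 0.20 for MRPL12, 0.29 for MRPS15, 0.31 for MRPL38 and 0.33 for MRPL24. Those that varied least were MRPL55 (0.37), MRPS22 (0.42), MRPL3 (0.43), MRPL4 (0.48), MRPS10 (0.49) and MRPS7 (0.51). MRPL39 followed the median of the other members most closely over the 39 groups (Spearman's rho 0.94). MRPS14 followed it least (0.23), then MRPS22 (0.25), MRPS16 (0.28), MRPL49 (0.34) and MRPS27 (0.40); the groups share libraries, so these are descriptions.

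**Figure D2:**
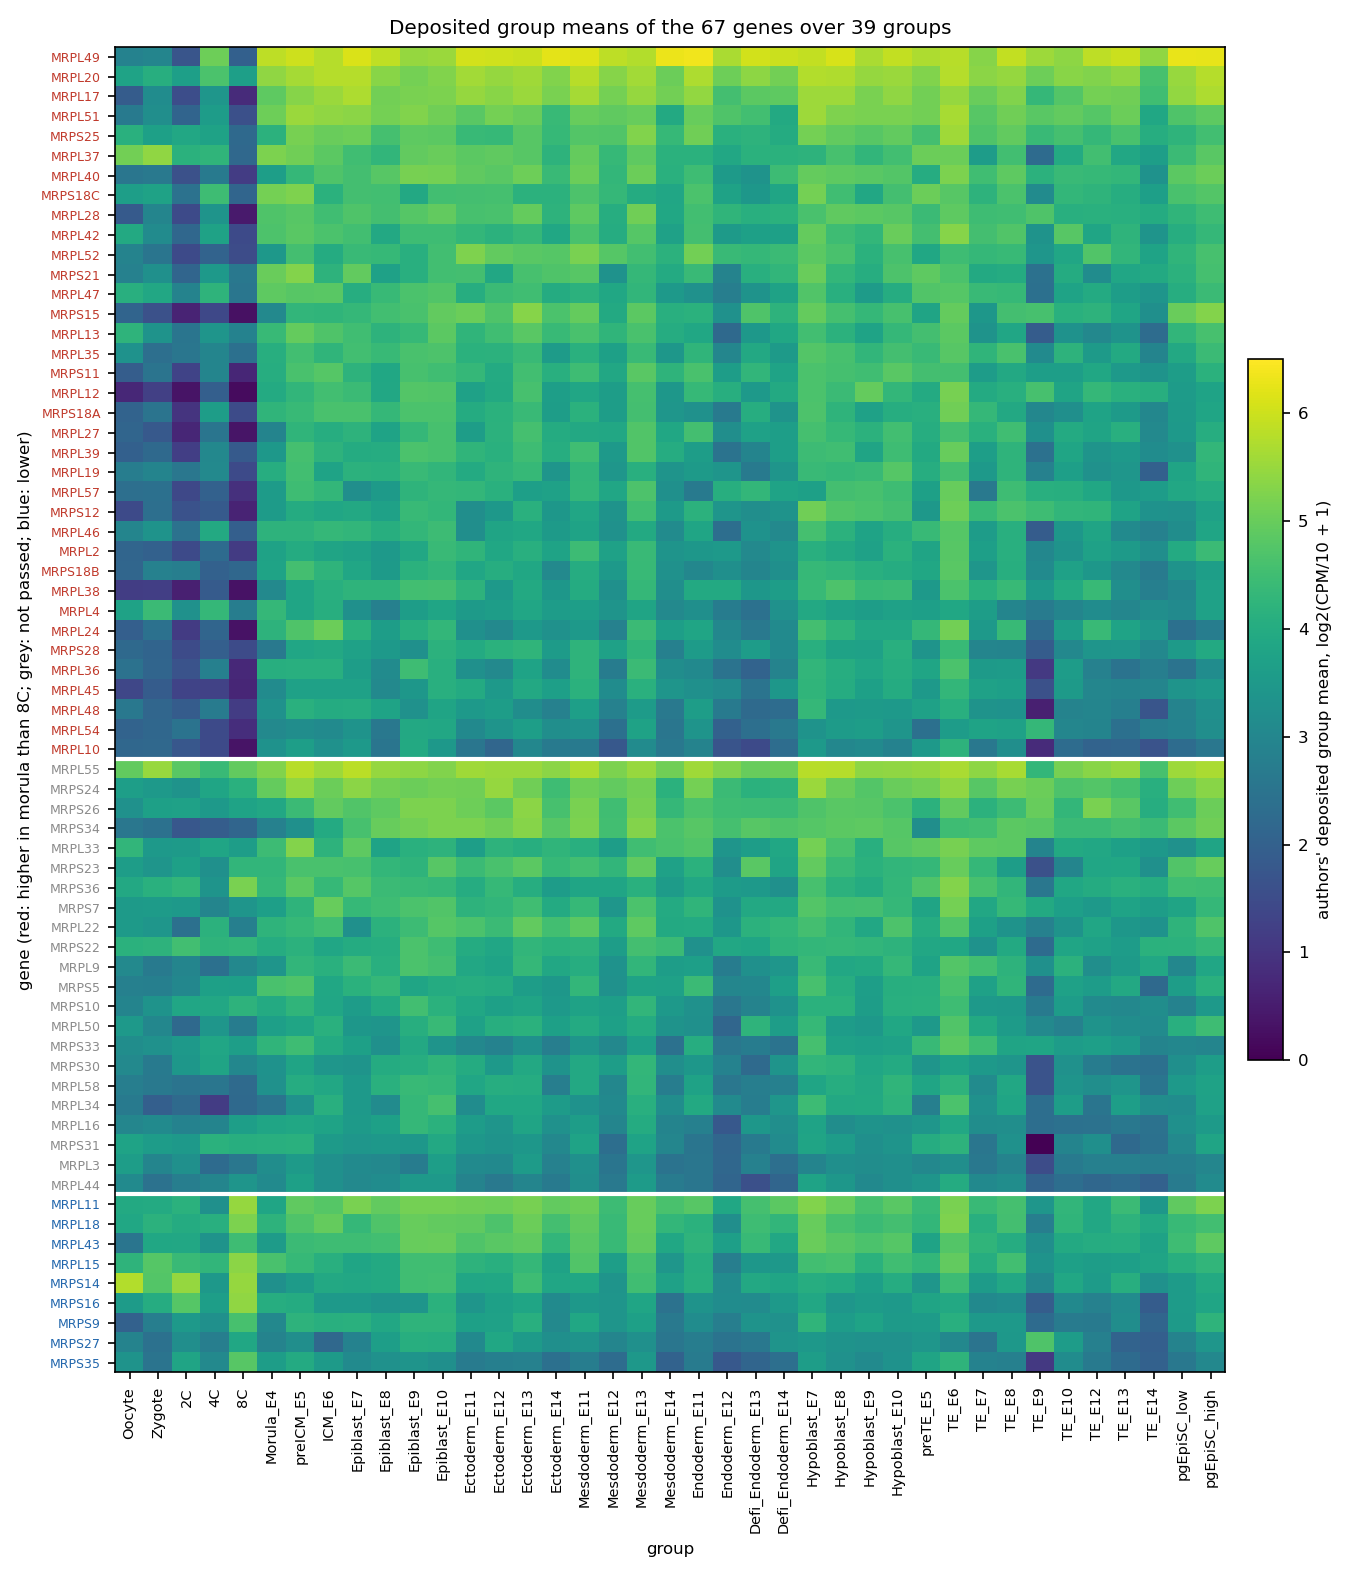
Deposited group means, log2(CPM/10 + 1), of the 67 members (one line per gene) over the 39 groups (columns). Gene names are red where the member rose from 8C to morula, blue where it fell and grey where it did not pass the test; low values are dark and high values bright, as in the 8C column for MRPL12 at 0.20 and MRPS14 at 5.48.

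From 8C to morula more members rose than fell. Of the 67, 36 rose and 9 fell, where 30.0% of the 23045 genes tested passed in either direction, 16.4% higher and 13.6% lower (edgeR's quasi-likelihood test, Benjamini-Hochberg adjusted p under 0.05). The share of members that fell is near that of all genes, and the share that rose is above it. The members' median log2 change was 1.26, beside a median of 0.00 over all genes tested. Here and below, log2 changes come from counts scaled between sums by edgeR (TMM). They can therefore differ from the ratio of the CPM values printed beside them. The 36 that rose had a median of 24.2 CPM in 8C and 188.6 CPM in morula, and the 9 that fell 359.4 CPM and 136.6 CPM.

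The large subunit had 28 of 43 members higher and 4 lower, with a median log2 change of 2.15. Of the small subunit 8 of 23 were higher and 5 lower, with a median of 0.39; the difference between the subunits was not tested. Members with a bacterial counterpart (20 higher and 6 lower of 37) and those specific to mitochondria (16 higher and 3 lower of 29) had medians of 1.17 and 1.59. MRPS36 did not pass.

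The members that rose were MRPL2, MRPL4, MRPL10, MRPL12, MRPL13, MRPL17, MRPL19, MRPL20, MRPL24, MRPL27, MRPL28, MRPL35 to MRPL40, MRPL42, MRPL45 to MRPL49, MRPL51, MRPL52, MRPL54, MRPL57, MRPS11, MRPS12, MRPS15, MRPS18A, MRPS18B, MRPS18C, MRPS21, MRPS25 and MRPS28. MRPL12 (chr12:1200458-1203817), the stalk protein that recruits translation factors and is also known to bind the mitochondrial RNA polymerase, was at 6.0 and 1.3 CPM in the 8C sums of P19 and P20. In the morula sums of P1 and P2 it was at 173.7 and 204.5 CPM. Its log2 change was 5.57 ± 0.58 (SE, edgeR adjusted p = 2.607e-10), and the groups are far apart.

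MRPL24 (chr4:93352997-93357805), a protein of the large subunit that contacts its RNA near the exit of the peptide tunnel, went from 7.4 and 2.7 CPM to 188.0 and 189.3 CPM. MRPL38, specific to mitochondria, went from 5.5 and 3.6 CPM to 90.1 and 118.3 CPM. The log2 changes were 5.03 ± 0.59 and 4.25 ± 0.49 (SE, edgeR adjusted p = 3.497e-09 and 3.287e-09). In both genes every morula sum was far above every 8C sum.

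In the small subunit MRPS15, which binds ribosomal RNA of the platform, had 10.3 and 2.0 CPM in 8C and 88.1 and 112.2 CPM in morula (log2 change 3.88 ± 0.58, edgeR adjusted p = 7.873e-07). MRPS11, also of the platform, had 16.9 and 8.1 CPM and then 183.3 and 190.0 CPM (3.67 ± 0.54, adjusted p = 5.781e-07). Its gene (chr1:191310547-191321951) lies 38 bases from MRPL46, another riser. MRPL17 had 27.1 and 11.3 CPM and then 302.1 and 374.7 CPM (3.93 ± 0.48, adjusted p = 9.267e-09). None of these 8C values reached a morula value. MRPL28 (4.75 ± 0.55) and MRPL10 (4.40 ± 0.64) are also among the 8 largest, but their counts cannot be told apart from those of PGAP6 and OSBPL7.

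The 9 members that fell were MRPS14, MRPS9, MRPL11, MRPS35, MRPS16, MRPS27, MRPL15, MRPL43 and MRPL18. MRPS14 (chr9:117097841-117137188), a protein of the small subunit's head, was at 395.3 and 441.6 CPM in 8C and at 99.9 and 87.8 CPM in morula. Its log2 change was −2.49 ± 0.50 (SE, edgeR adjusted p = 0.0001309). It was also high in Oocyte, at 443.7 CPM (95% Poisson interval 420.91 to 467.47, counting error only), and in Zygote, at 298.1 CPM.

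MRPS9, also of the small subunit's head, was at 209.9 and 261.6 CPM in 8C and 111.2 and 83.9 CPM in morula (−1.62 ± 0.38, edgeR adjusted p = 0.0008175). MRPL11, of the factor-binding site of the large subunit, was at 345.0 and 439.8 CPM and then 165.4 and 188.5 CPM (−1.50 ± 0.37, adjusted p = 0.001382). MRPS35 was at 242.0 and 297.2 CPM and then 137.1 and 123.6 CPM (−1.39 ± 0.50, adjusted p = 0.03154). In each of these the groups do not overlap. The other members that fell changed by −0.99 (MRPL18) to −1.38 (MRPS16), with adjusted p from 0.01428 to 0.04367.

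The 22 members that did not pass were MRPL3, MRPL9, MRPL16, MRPL22, MRPL33, MRPL34, MRPL44, MRPL50, MRPL55, MRPL58, MRPS5, MRPS7, MRPS10, MRPS22, MRPS23, MRPS24, MRPS26, MRPS30, MRPS31, MRPS33, MRPS34 and MRPS36. MRPS22, for example, was at 203.8 and 199.7 CPM in 8C and 170.0 and 184.7 CPM in morula. MRPL58, a release factor-like hydrolase that is built into the large subunit, and MRPL44, which resembles a ribonuclease, had pooled levels of 44.6 and 108.1 CPM in 8C and 106.7 and 102.6 CPM in morula.

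**Figure D3:**
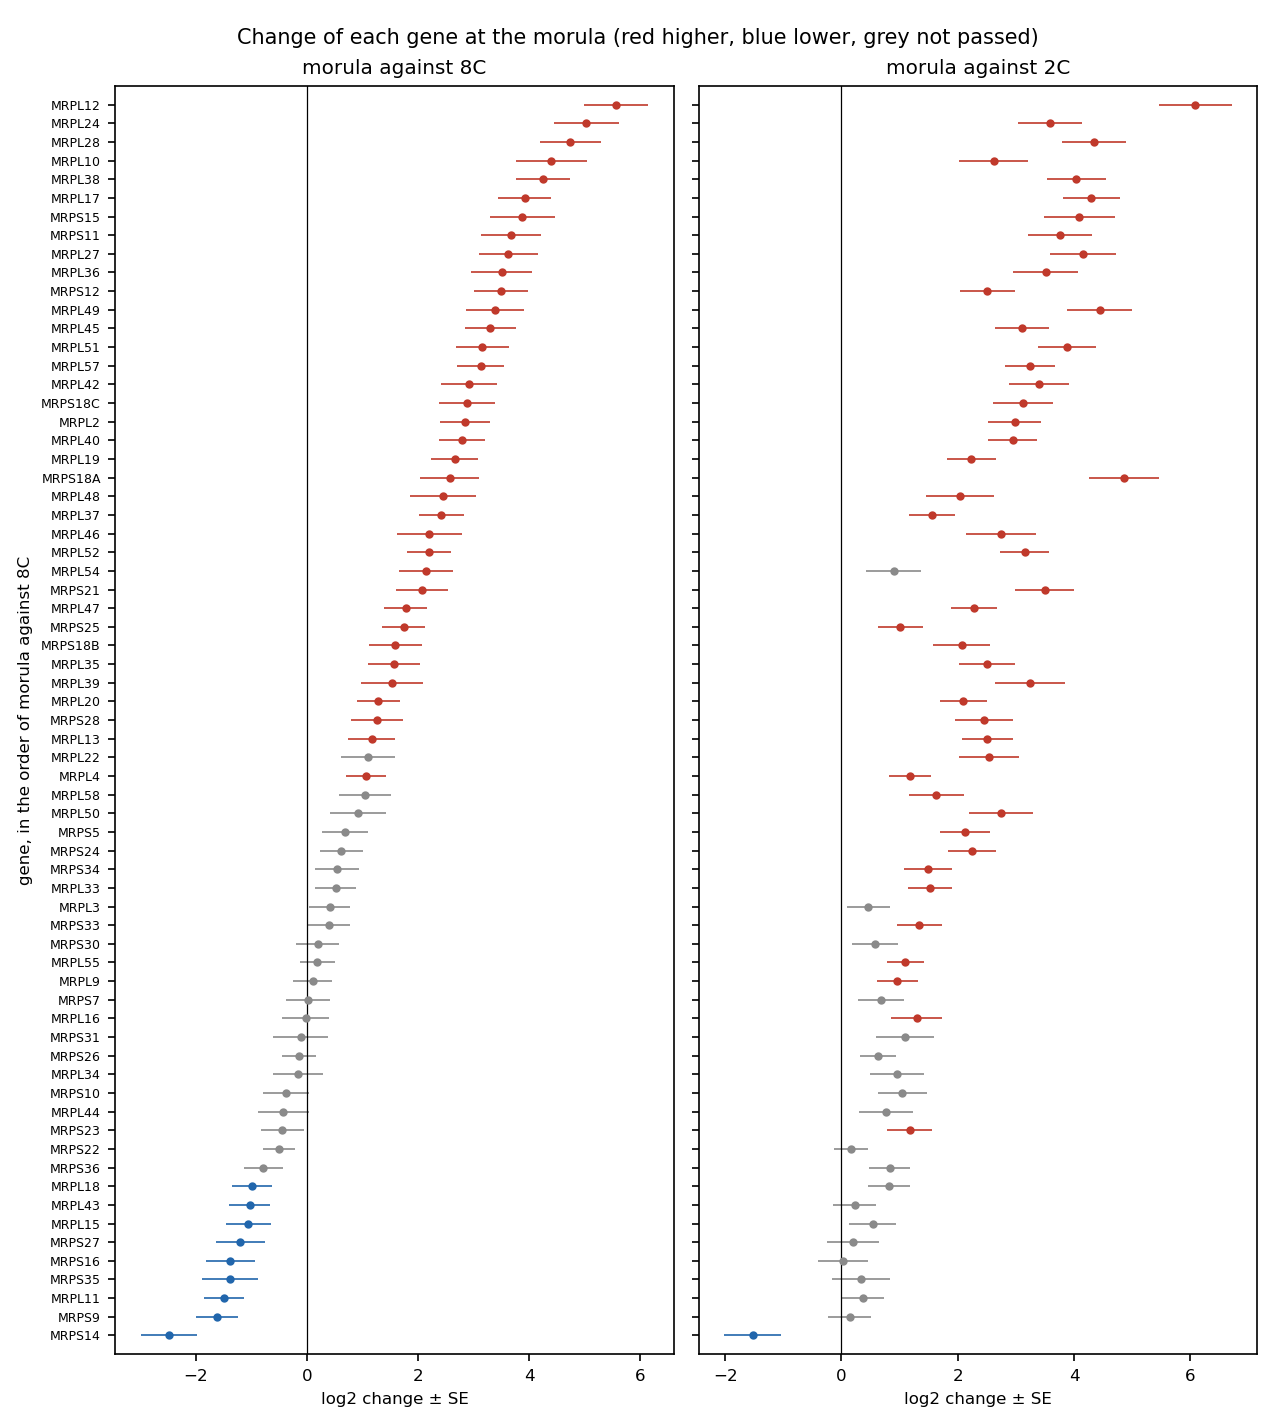
Log2 change (± SE) of each of the 67 members from 8C to morula and from 2C to morula, ordered by the former. MRPL12 is at the top with 5.57 and MRPS14 at the bottom with −2.49; against 2C, MRPS14 is the member that fell past the threshold, with −1.53.

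Without 1 library the numbers of higher and lower members were 32 and 6 (without P1), 30 and 3 (without P2), 27 and 11 (without P19) and 31 and 1 (without P20). All 9 members that fell kept a negative change without P2 (−0.96 to −2.44) and without P20 (−0.57 to −2.15), and both of their morula sums were below both 8C sums. MRPS14 passed in all 10 alternatives run. Leaving out the 9 members whose counts were nearest to a neighbour's left 32 higher and 7 lower of 58. DESeq2's size factors in place of TMM lowered the median of all genes to −0.47, and the members' median to 0.76, with 30 members higher and 12 lower.

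The morula was also set against 2C and 4C, in comparisons added after these values were seen and sharing the morula sums with the one above. Against 2C, 47 of 67 members were higher and 1 lower (MRPS14, −1.53 ± 0.49, edgeR adjusted p = 0.0191), beside 22.0% of all genes, 14.4% higher and 7.61% lower. Against 4C, 30 members were higher and 0 lower, beside 8.25% of all genes, 5.92% higher, with a median of 1.27.

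Library P1 holds both 2C and morula cells and allows this comparison within 1 library. The members that rose or fell from 8C were chosen with this morula sum, so their values in P1 are a description. Of the 36 that rose from 8C, 36 were higher in morula than in 2C of P1 (median log2 ratio 2.72). Of the 9 that fell from 8C, 5 were higher in morula than in 2C of P1 (median 0.03). MRPL12 was at 2.7 CPM in 2C and 173.7 CPM in morula. MRPS14 went from 515.3 CPM in 2C to 99.9 CPM in morula, and was at 181.3 CPM in 2C of P13.

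**Figure D4:**
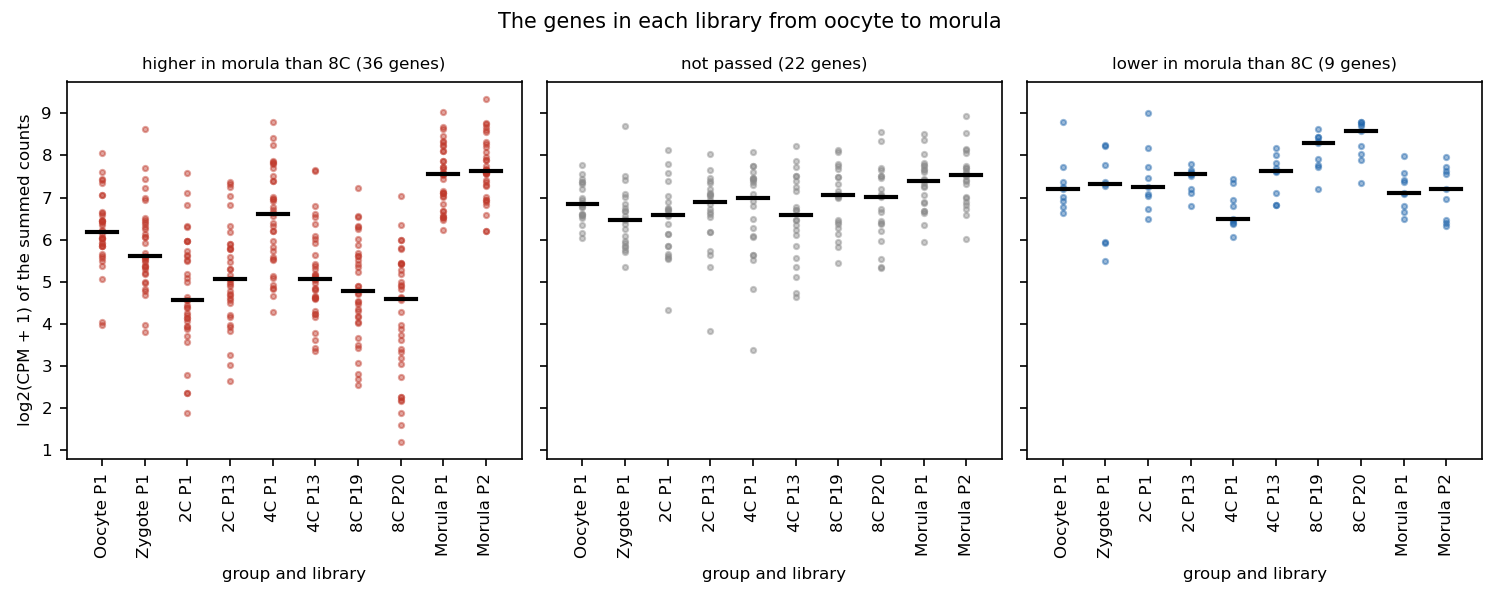
Level of each member, log2(CPM + 1), in the 10 sums from Oocyte to Morula_E4, for the 36 members that rose from 8C to morula, the 22 that did not pass and the 9 that fell. Bars are medians; for the risers the 2C, 8C and P13 sums are low, the 4C sum of P1 stands above that of P13, and both morula sums are highest.

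From 2C to 4C, 15 members rose and 0 fell, beside 4.52% of all genes in either direction and 4.43% higher, and the median log2 change was 0.50. Of the 15, 13 were large-subunit members. In 4C cells of P1 MRPL12 was at 61.8 CPM against 2.7 CPM in 2C of that library, and in P13 at 9.7 against 5.2 CPM (log2 change 3.59 ± 0.58, edgeR adjusted p = 8.769e-05). MRPS18A, one of the related MRPS18 proteins and the one that sits in the large subunit, had the largest change, 3.64 ± 0.58 (adjusted p = 8.612e-05). MRPL27, which lies near the site of peptide bond formation, was at 73.2 against 5.9 CPM in P1 and 12.7 against 8.5 CPM in P13 (2.93 ± 0.55, adjusted p = 0.0003214). The rise is thus seen mainly in P1.

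Over the 36 members that later rose, 33 were higher in 4C than in 2C within P1 (median log2 ratio 1.74), and 16 within P13 (median −0.08). The sums of P1 held 8 cells in 2C and 17 in 4C, and those of P13 only 2 and 6. The 4C cells of P13 are those with low TFAP2C, GATA6 and KLF17. Without P1, 0 members passed, and with the library as a block, or with the 4 sums alone, 0 passed, with 3 and 6 members at an unadjusted p under 0.05. DESeq2 called 18 higher and 2 lower. Without P13, 24 passed as higher and 2 as lower.

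MRPL49 (chr2:7066514-7071812), specific to mitochondria, rose in the same step, from 19.6 to 446.9 CPM in P1 and from 58.5 to 63.2 CPM in P13. It overlaps FAU, which encodes a cytosolic ribosomal protein, by 910 bases, and SYVN1 by 104 bases. FAU was at 114.4 CPM in 2C and 622.5 CPM in 4C of P1, and at 178.5 and 282.8 CPM in P13. The counts of FAU and SYVN1 were within 5% of each other in 92.4% of 1613 cells, although these genes lie 4285 bases apart with MRPL49 between them. How many of MRPL49's counts came from FAU was not tested.

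From 4C to 8C, 13 members rose and 13 fell, beside 11.2% of all genes, 4.08% higher and 7.16% lower. This comparison shares its sums with both others. The falls were led by MRPL12, from 61.8 and 9.7 CPM in 4C to 6.0 and 1.3 CPM in 8C (−3.06 ± 0.52, edgeR adjusted p = 5.437e-05), MRPL28 (−3.02) and MRPL24 (−2.65). MRPL24 was at 55.3 and 27.0 CPM and then 7.4 and 2.7 CPM.

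The rises were led by MRPL34, a small protein of the large subunit, from 9.4 and 25.5 CPM in 4C to 76.9 and 39.9 CPM in 8C (2.38 ± 0.48, adjusted p = 0.0004519). MRPS35 (2.08), MRPL11 (2.02), MRPS14 (2.01) and MRPS36 (1.91) followed. MRPS14 was at 83.5 and 255.3 CPM in 4C and 395.3 and 441.6 CPM in 8C. For MRPL34 and MRPS14 the higher 4C sum was below the lower 8C sum. Without P20 there were 3 rises and 5 falls, and without P1 10 rises and 1 fall.

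Other genes of the mitoribosome and of mitochondria are given by lists chosen with results of these data known. From 8C to morula all 5 mitoribosomal proteins with other names were higher, among them GADD45GIP1 (log2 change 2.77 ± 0.40) and DAP3 (1.99 ± 0.42), by edgeR's test. Of 18 assembly factors and modifiers of ribosomal RNA 11 were higher and 0 lower, led by MTG2 (5.31 ± 1.06). Among 14 translation factors 8 were higher and 1 lower, including the elongation factor TUFM (4.60 ± 0.44) and its exchange factor TSFM (5.81 ± 0.68). The 17 mitochondrial aminoacyl-tRNA synthetases had 8 higher, led by AARS2 (6.52 ± 1.05), and 3 lower, with RARS2 at −3.38 ± 0.60. Of 10 genes of mitochondrial DNA transcription 6 were higher and 1 lower; POLRMT, the RNA polymerase that MRPL12 binds, had 4.32 ± 0.71.

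The ribosome of the cytosol moved in 1 direction: 58 of 58 proteins were higher in morula than in 8C (median 3.25). Of 20 nuclear genes of oxidative phosphorylation 18 were higher and 0 lower (median 2.93). The 13 protein genes of the mitochondrial genome, which the mitoribosome translates, had 0 calls (median −0.19). From 4C to 8C they had had 9 rises and 0 falls, a step in which 43 of 58 cytosolic ribosomal proteins fell.

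From the morula to the first trophectoderm (preTE_E5), 66 of 67 members had a positive change but 0 passed, beside 0.0521% of all genes. At an unadjusted p under 0.05 there were 20 members, and DESeq2 called 3. The share of all genes at these thresholds is not given. From preTE_E5 to TE_E6, the mature trophectoderm of the blastocyst, 11 members rose and 0 fell, beside 4.86% of all genes, 3.09% higher (median log2 change 0.65). The 11 were 6 large-subunit and 5 small-subunit members. Library P14 held both groups, and its summed member level was 19698 CPM in preTE_E5 (8 cells) and 20517 CPM in TE_E6. The preTE_E5 sums of P13 and P2 were at 16138.1 and 15365.5 CPM, and TE_E6 of P15 at 20803.8 CPM. MRPL34 had 104.3, 178.0 and 92.1 CPM in the preTE_E5 sums of P13, P14 and P2, and 290.7 and 375.6 CPM in the TE_E6 sums of P14 and P15 (1.85 ± 0.40, edgeR adjusted p = 0.002754). The groups do not overlap.

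MRPS7, of the small subunit's head, had 138.1, 228.2 and 192.4 CPM and then 371.0 and 352.4 CPM (1.38 ± 0.35, adjusted p = 0.01293). MRPL38 had 136.4, 155.4 and 120.8 CPM and then 284.7 and 262.2 CPM (1.42 ± 0.38, adjusted p = 0.01958). MRPL12 had 170.2, 257.3 and 188.9 CPM and then 378.1 and 409.7 CPM (1.37 ± 0.42, adjusted p = 0.04765). All 3 were higher in both TE_E6 sums than in any earlier one. The number of higher members was 4 without P13, 2 without P14, 4 without P2 and 0 without P15, and 37 with sums of at least 10 cells. Among the lists, 5 of 20 oxidative phosphorylation genes and 1 of 58 cytosolic ribosomal proteins rose in this step.

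MRPL57 (chr11:1320846-1321829), a short protein specific to mitochondria, changed in successive steps of the trophectoderm. It had 139.1, 203.7 and 165.5 CPM in preTE_E5, 355.7 and 431.3 CPM in TE_E6, 66.5 and 36.4 CPM in TE_E7 (P8 and P9), 231.7 and 272.2 CPM in TE_E8, and 192.0 and 256.3 CPM in TE_E10. The TE_E7 sums are the lowest and do not overlap with any of the others. The rise to TE_E6 was 1.64 ± 0.35 (edgeR adjusted p = 0.002381), the fall to TE_E7 −3.16 ± 0.43 (adjusted p = 5.656e-05) and the rise to TE_E8 2.31 ± 0.42 (adjusted p = 0.0173).

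It was the only member called in the last 2 steps, beside 0.755% of all genes (0.382% lower) in the step to TE_E7 and 0.0304% (0.0174% higher) in the step to TE_E8. In the same libraries P8 and P9, MRPL57 was at 129.8 and 130.1 CPM in Epiblast_E7 and 174.7 and 173.9 CPM in Hypoblast_E7. Its deposited means there, 3.21 and 3.70, were the lowest of the epiblast and of the hypoblast groups. In Endoderm_E11, from P8 alone, the mean was 2.65, against 4.07 in Endoderm_E12. TE_E7, Epiblast_E7 and Hypoblast_E7 came only from P8 and P9, and no other library held E7 cells. P8 also held Endoderm_E11 cells and P9 TE_E13 cells, so day and library overlap only in part. Whether the low values go with the day or with the library was not tested. The gene SKA3, which overlaps MRPL57 by 287 bases, was at 28.4 and 31.9 CPM in TE_E6 and 29.4 and 34.4 CPM in TE_E7. The fall to TE_E7 passed in all 9 alternatives run. The rise to TE_E8 passed in 5 of 9.

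In TE_E7, however, the P9 sum holds 5 cells with 35512 to 207279 counts each, and its summed member level was 6590 CPM against 19304 CPM in P8. From TE_E6 to TE_E7, 0 of 67 members had a positive change and 35 had an unadjusted p under 0.05. With P8 left out, the step to TE_E7 had 56 falls and the step to TE_E8 had 34 rises, since TE_E7 was then P9 alone. MRPS12, for example, was at 395.0 CPM in TE_E7 of P8 and 89.0 CPM in that of P9, against 381.0 and 321.6 CPM in TE_E6.

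In the other steps of this kind 0 members passed by edgeR's test, and the number with an unadjusted p under 0.05 and the calls of DESeq2 are given for each. The percentages are shares of all genes by edgeR's adjusted p. Shares by unadjusted p or DESeq2 are not given, so no excess of members can be read from these counts. From TE_E8 to TE_E10 (0.130% of all genes called) these were 5 and 0. From ICM_E6 to Epiblast_E7 (1.84%) they were 4 and 3, and to Hypoblast_E7 (0.972%) 2 and 1. From Epiblast_E7 to Epiblast_E8 (0.594%) they were 9 and 2, and from Hypoblast_E7 to Hypoblast_E8 (0.239%) 0 and 0.

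From Epiblast_E10 to Ectoderm_E11 (0.165%) they were 2 and 0. From E13 to E14 they were 6 and 2 in the ectoderm (0.269%) and 12 and 1 in the mesoderm (0.00%). As above, the percentages are by edgeR's adjusted p, so they are no measure for members at an unadjusted p. In these 2 steps to E14 the members' medians were −0.52 and −0.63, with 3 and 4 of 67 members positive.

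The lineages were compared within libraries that held both. Members differed little between the hypoblast and the epiblast: the summed level had within-library log2 ratios of −0.18 to 0.23 over 6 libraries. Even so 7 members were higher in the hypoblast and 0 lower, beside 22.5% of all genes in either direction and 11.3% higher. The members' share is near that of all genes for the higher direction and below it for both directions together. These were MRPS12, MRPL45, MRPS33, MRPL15, MRPL4, MRPS11 and MRPL42.

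MRPS12, part of the decoding centre of the small subunit, was at 388.8 against 195.5 CPM (hypoblast against epiblast) in P8 and 336.5 against 167.5 CPM in P9, both E7. At E8 it was at 313.6 against 152.2 CPM in P4 and 222.3 against 134.2 CPM in P5. At E9 it was at 276.5 against 220.9 CPM in P17, and at E10 at 273.1 against 186.8 CPM in P16. The hypoblast was higher in 6 of 6 libraries, with a log2 change of 0.77 ± 0.13 (edgeR with the library as a block, adjusted p = 0.001278). The gene is listed as a long non-coding RNA in the RefSeq table. It passed in all 14 alternatives run.

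MRPL45, which ties the large subunit to the inner membrane, was higher in the hypoblast in 6 of 6 libraries, by log2 ratios of 0.17 to 1.25 (0.59 ± 0.18, edgeR adjusted p = 0.03196). MRPS33 ranged from 0.02 to 1.12 (0.54 ± 0.16, adjusted p = 0.03343) and MRPL4, which lines the peptide tunnel, from 0.16 to 0.75 (0.49 ± 0.14, adjusted p = 0.02722). MRPL15 was lower in P17, at −0.21, and higher in the other 5 libraries. The number of higher members was 2 without P16, 2 without P4, 1 without P5, 4 without P8, 4 without P9 and 8 without P17. The mitochondrial genome had 0 higher and 2 lower of 13 genes, ND1 (−0.40 ± 0.12) and ND3 (−0.36 ± 0.09), and the cytosolic ribosomal proteins had 0 calls.

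**Figure D5:**
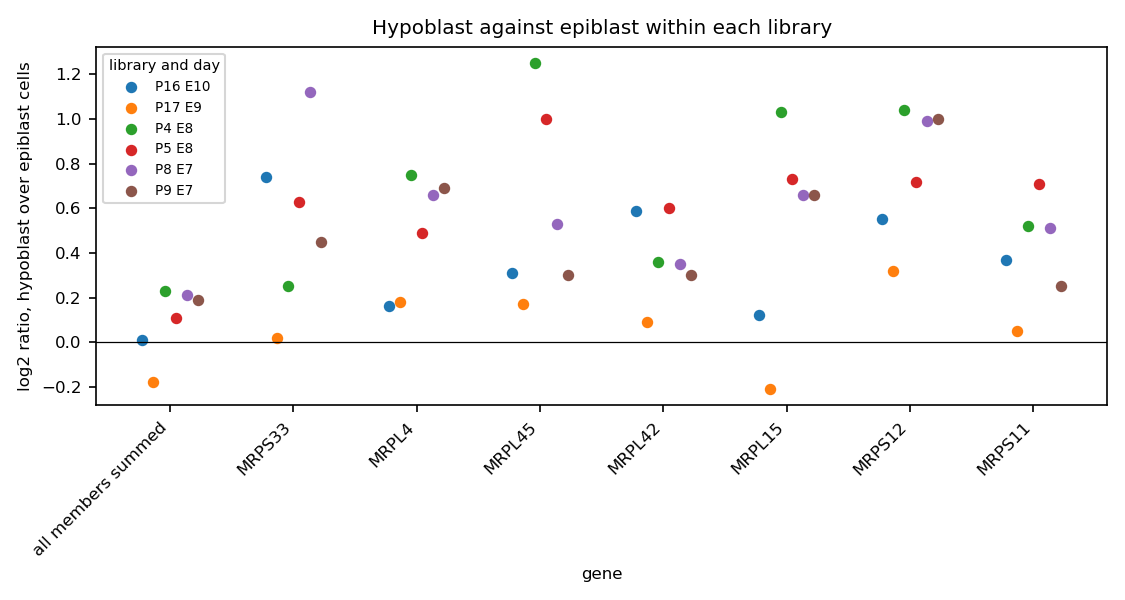
Within-library log2 ratios of hypoblast to epiblast for the 7 members called and for the sum of all 67, each point a library that held both lineages. MRPS12 lies between 0.32 and 1.04, while the summed level lies between −0.18 and 0.23.

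Between the trophectoderm and the inner cell mass or epiblast 0 members passed (5.97% of all genes did; 0 members had an unadjusted p under 0.05 and DESeq2 called 0). The summed ratios ran from −1.24 in P9 to 0.26 in P15, with 4 of 6 above 0. Between the hypoblast and the trophectoderm 1 member was higher, beside 20.8% of all genes, 11.4% higher. It was MRPL22, a protein of the peptide tunnel, with 283.2 against 228.1 CPM in P8, 249.6 against 74.9 CPM in P9 at E7. At E8 it had 250.4 against 102.7 CPM in P3 and 220.0 against 126.4 CPM in P4. At E10 it had 234.2 against 119.9 CPM in P5 and 235.5 against 145.6 CPM in P6. It was higher in the hypoblast in 6 of 6 libraries (0.81 ± 0.23, edgeR adjusted p = 0.0244).

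Mesoderm and ectoderm differed in 2 members, both higher in mesoderm, beside 3.62% of all genes, 2.11% higher. The members' share is near that of all genes. MRPL24 had 121.4 against 91.3 CPM in P6 (E11), 107.3 against 90.6 CPM in P10 (E12), 210.8 against 143.1 CPM in P18 and 213.4 against 116.3 CPM in P19 (E13), and 189.8 against 110.8 CPM in P12 and 143.1 against 99.6 CPM in P13 (E14). It was higher in mesoderm in 6 of 6 libraries (0.65 ± 0.14, edgeR adjusted p = 0.03295). MRPL36, a small protein with a bacterial counterpart, was also higher in 6 of 6, by log2 ratios of 0.23 to 1.01 (0.58 ± 0.12, adjusted p = 0.03006). Without P6 1 of these passed; both passed without P10, and 0 without any other library.

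The endoderm groups were lower in summed level than the ectoderm in 4 of 4 libraries, by log2 ratios of −0.42 to −0.14. Of single members 0 passed, beside 1.31% of all genes, and 7 of 67 had a positive change (median −0.31). At an unadjusted p under 0.05, where the share of all genes is not given, there were 5 members, and DESeq2 called 0.

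The libraries pgEpiSC_low and pgEpiSC_high served together as replicates of the stem cell group, although what low and high mean is not given. The SEs and p-values of the stem cell comparison therefore include any difference between low and high. The stem cells differed from their source tissue, Epiblast_E10, in 8 members, 4 higher and 4 lower, beside 6.52% of all genes, 3.30% higher and 3.23% lower. All 8 belong to the large subunit. Those lower were led by MRPL24, with 226.4 and 183.2 CPM in the epiblast sums of P15 and P16 and 64.2 and 76.9 CPM in pgEpiSC_low and pgEpiSC_high (−1.29 ± 0.21, edgeR adjusted p = 0.003372). MRPL36 had 195.1 and 178.0 CPM and then 66.6 and 101.4 CPM (−0.92 ± 0.22, adjusted p = 0.02572). MRPL12 had 271.5 and 265.9 CPM and then 125.9 and 148.1 CPM (−0.73 ± 0.19, adjusted p = 0.04101). In these genes, and in MRPL38 (−0.78 ± 0.21), both stem cell libraries were below both epiblast sums.

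MRPL24 was lower in the stem cells than in any epiblast sum, the others being 211.7 and 205.6 CPM at E7, 158.7 and 123.7 CPM at E8 and 183.1 CPM at E9. Those higher were MRPL49, with 377.1 and 494.6 CPM in the epiblast and 771.9 and 711.7 CPM in the stem cells (1.01 ± 0.16, adjusted p = 0.003454), MRPL20 (0.74 ± 0.15), MRPL17 (0.73 ± 0.17) and MRPL55 (0.68 ± 0.15). FAU, which overlaps MRPL49, had 747.0 and 842.7 CPM and then 1201.0 and 1022.9 CPM. MRPL55 is the member matched by GUK1 in 41.7% of cells.

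MRPL20, a large-subunit protein, had 350.8 and 401.7 CPM and then 523.4 and 540.4 CPM. The cytosolic ribosomal proteins had 51 of 58 higher (median 0.68) and oxidative phosphorylation 7 of 20. The mitochondrial genome had 5 of 13 higher, among them ND1 (0.92 ± 0.12). The stem cell and epiblast groups share no library, so culture and library cannot be told apart. Without P15 1 member passed, without P16 4, without pgEpiSC_low 2, and with all epiblast days as the reference 0.

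Between pgEpiSC_high and pgEpiSC_low, with 1 library each and no test, 0 of 67 members differed by more than 2-fold, where 5.66% of 10762 genes did. With a pseudocount of 5 CPM in place of 1 CPM, 1.68% of the genes and 0 members did. The members' median log2 ratio was 0.22 and that of all genes 0.09, and 62 of 67 were above 0. The ratios ran from −0.16 for MRPS36 to 0.74 for MRPL39. MRPL39 had 126.67 CPM (95% Poisson interval 120.73 to 132.83, counting error only) in pgEpiSC_low and 211.80 CPM (205.47 to 218.27) in pgEpiSC_high.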

How the data were processed

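Polyadenylated RNA of 1647 single cells in 22 libraries was measured. Reads were handled with STAR 2.7.1a, featureCounts 1.6.4 and UMI-tools on Sscrofa11.1, per the submitters' processing notes; which step each did was not stated in what was read here. The authors deposited counts per gene and cell (29214 pig genes and 92 spike-ins), and tables of means and SDs over the cells of 39 groups, which the values show to be of log2(CPM/10 + 1). Cell groups were recovered by fitting the deposited means to the cells: in the worst group 97.94% of the means and 99.9% of the SDs were then met within 0.001. The 67 members were matched to count identifiers by value (largest difference 0.00107, next best at least 0.074), and 61 were also named by the reference.

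Counts were summed per group and library requiring 5 cells or more, except at the earliest stages (Oocyte 1, Zygote, 2C and 4C 2), giving 67 sums. Median depth was 274531 counts per cell. edgeR 4.0.16 in R 4.3.3 (TMM, filterByExpr, trended dispersion, quasi-likelihood test) was fitted over all genes, with the library as a block for lineage comparisons, and p-values were adjusted after Benjamini and Hochberg at 0.05. CPM is per 1000000 pig counts of a sum, without the TMM scaling that the log2 changes of the tests use. For MRPL12 from preTE_E5 to TE_E6, the TMM-scaled group means were 197.57 and 508.91 CPM. Single-library intervals are exact Poisson at 95%. Alternatives were DESeq2 1.42.0, its size factors, no filter, no trend, at least 6000 genes per cell, at least 10 cells per sum, no mitochondrial genes, and leaving out each library. On data simulated for the 8C and morula design (18024 genes), 42% of 100 genes changed 4-fold and 100% of 100 changed 16-fold were recovered, with 5 false calls. The simulation gave every gene a dispersion of 0.15 and its mean over all groups, and only the changed genes differed between groups. The real fit tested 23045 genes, so these figures hold for the simulated setting only. Text names up to 8 members per direction above 10 CPM by size of change, and others by their role. Members, lists and comparisons were chosen with earlier results of these data known.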

Additional observations from a re-analysis of the deposited data

Results flagged for a closer look

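Among 16 sets of within-library ratios or sums of 4 to 10 values, of which chance sets apart about 1 in 20, 2 had a value far from the others. The summed log2 ratio of trophectoderm to inner cell mass or epiblast was −1.24 in library P9, where the nearest other library had −0.09. The summed log2 ratio of hypoblast to trophectoderm was 1.43 in P9, where the nearest other had 0.29. Both come from the TE_E7 sum of P9, which had 6590 CPM of member counts from 5 cells, against 15610 CPM in Epiblast_E7 and 17796 CPM in Hypoblast_E7 of the same library.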

How the results depend on the processing

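From 8C to morula, every alternative run kept the number of called members within 1.5 times of 45, and leaving out 1 library gave 32 to 38. From 2C to 4C (15 members called) it was 9 without trended dispersion, 24 with at least 6000 genes per cell, 0 with the replicate block and 0 with the 4 sums alone without it, and 0 to 26 with 1 library left out (0 without P1, 26 without P13). From 4C to 8C (26) leaving out 1 library gave 8 to 37 (8 without P20, 11 without P1).

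Over the later steps (13 called) it was 21 without a filter, 3 without trended dispersion, 54 with at least 10 cells per sum, 35 by DESeq2, and 2 to 101 with 1 library left out, the highest without P8. Within libraries, the lineage comparisons (10 called) gave 25 without a filter, 1 without trended dispersion, 1 with at least 10 cells per sum, 2 with no replicate block, and 3 to 11 with 1 library left out. For the stem cells (8 called) it was 15 without a filter, 0 without trended dispersion, 0 against all epiblast days, 14 by DESeq2, and 1 to 7 with 1 library left out. The causes were not tested. The share of all genes called was not set beside the member counts of these alternatives, here or above.

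The ratio of the highest to the lowest summed level was 3.67 in CPM and 7.34 per spike-in count, among embryonic groups that have a library sum. With 1 library left out, the change of MRPL28 from 2C to 4C lay between −0.15 (without P1) and 3.46, and that of MRPL49 from 4C to 8C between −2.71 and 0.24 (without P1), so both reversed without P1. Of the named members' values under the alternatives, 549 kept direction and call and 208 kept direction only. A minimum of 10 cells was not run for the cleavage steps, and a replicate block was not run for later steps, which do not share 2 libraries. Depth limits some groups: 2C rests on 10 cells and TE_E7 on 14.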
